A study of Mus musculus with 18 samples.

Results

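Among the 17941 gene rows counted in splenic neutrophils of lupus-prone mice, 5 rows were followed here through 3 ages: the ribosomal RNA rows Rn18s-rs5, mt-Rnr1 and mt-Rnr2, the protein-coding gene Lars2, and the long non-coding RNA Yam1. They were chosen by gene symbol, with their differences between ages in these same libraries already known, so those differences are given as a description and carry no test. All 5 rows had counts in all 18 libraries and passed the filter on low counts, which left 10104 rows for testing. The mice were female NZBWF1/J, the hybrid of NZB and NZW parents in which systemic autoimmunity arises spontaneously, and 6 of them were sampled at each of 14, 20 and 26 weeks of age. No mouse was treated, and no transgene or other engineered allele is named in the labels. Neutrophils were purified from splenocytes by flow sorting, with a gate on viable singlets that were Ly6b+, CD11b+, Ly6G+ and intermediate for Ly6C. PolyA RNA is the molecule named in the labels. The values are reads per gene row, 1 library per mouse.

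Ribosomes are built on ribosomal RNA, which RNA polymerase I transcribes from tandem repeats of nuclear DNA, while mitochondria transcribe the 2 RNAs of their own ribosomes from the mitochondrial genome. Cytosolic ribosomal RNA ends without a poly(A) tail, and mitochondrial ribosomal RNA carries a short stretch of A at its end. Neutrophils are short-lived cells with few mitochondria, and they lose much of their ribosome production as they mature in the bone marrow.

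Rn18s-rs5 is named for the RNA of the small cytosolic ribosomal subunit and lies at chr17:39846354-39848202, 1849 bases annotated as a pseudogene in RefSeq (GRCm38.p6). RefSeq gives Gm42418 as a synonym, and GENCODE M21 (GRCm38) has Gm42418 at chr17:39846958-39848788 on the plus strand as a single exon. The minus strand of the same place holds AY036118 (chr17:39847113-39848035) and CT010467.1 (chr17:39846353-39848827), the second of which is annotated as ribosomal RNA. AY036118 matched the minus strand of Gm42418 over 923 bases at 100% identity. Read from the opposite strand, 47.6% of all 100-base windows of Gm42418 also occur in AY036118. Neither Gm42418, AY036118 nor CT010467.1 is a row of the count table. mt-Rnr1 (chrM:70-1024, 955 bases) encodes the RNA of the small mitochondrial subunit, and mt-Rnr2 (chrM:1094-2675, 1582 bases) that of the large one. mt-Rnr2 resembles the nuclear gene Gm20594 on chromosome 6, at 88.5% identity over 435 bases, which is not a row of the table either. mt-Rnr2 also matched the other strand of Cep295 at 77.9% over 662 bases. Cep295 is a row of the table with too few counts for the test, at most 1 read in a library at 14 weeks, 0 at 20 weeks and 33 at 26 weeks.

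Since polyA RNA is the molecule named for these libraries, the longest run of A in each ribosomal RNA locus is printed in capitals with the bases around it, 5′ to 3′. The bases come from GENCODE M21 transcripts on GRCm38. The second line gives the same bases of chromosome 17 as the antisense transcript reads them, with the run of T in capitals.
Rn18s-rs5 locus, chr17:39847145-39847194, plus strand, as in Gm42418: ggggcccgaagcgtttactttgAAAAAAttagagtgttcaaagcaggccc
Rn18s-rs5 locus, chr17:39847145-39847194, minus strand, as in AY036118: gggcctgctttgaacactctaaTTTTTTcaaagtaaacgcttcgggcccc
mt-Rnr1, chrM:683-731, plus strand: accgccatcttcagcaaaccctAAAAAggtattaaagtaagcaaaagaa
mt-Rnr2, chrM:1466-1516, plus strand: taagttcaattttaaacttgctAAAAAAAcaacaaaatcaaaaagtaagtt

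A search for AAAAAA on the transcript's own strand, with overlapping matches counted, found 5 matches in mt-Rnr2, 1 in Gm42418 and 0 in mt-Rnr1. Of all annotated transcripts at least as long, 38.7%, 43.4% and 25.6% hold such a run within the same length from their start. On the other strand, where the letters read TTTTTT on the transcript, each of these 3 sequences had 0 matches, against 34.7%, 39.6% and 21.9% of transcripts. The 2 mitochondrial RNAs are A-rich, with 37.8% of bases A in mt-Rnr1 and 38.2% in mt-Rnr2, while Gm42418 holds 17.7%. Whether these runs bear on the read counts was not tested.

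Lars2 encodes the mitochondrial leucyl-tRNA synthetase, the enzyme that charges mitochondrial leucine tRNAs for protein synthesis. The gene (ENSMUSG00000035202.8) lies at chr9:123366927-123462666 on the plus strand, and its main transcript in GENCODE M21 has 21 exons and 3894 bases. This transcript shares sequence with Gm15564 (ENSMUSG00000086324.8), an antisense RNA at chr16:35966752-35983230 on the minus strand, which overlaps Kpna1 and Parp9 on the opposite strand. The Lars2 transcript and a spliced transcript of Gm15564 share an exact run of 52 bases, found in 2 of 55341 genes, and match at 98.6% over 72 bases with 1 mismatch. In Lars2 the run lies in the 3′ untranslated region, at chr9:123462048-123462099. In Gm15564 all but 1 of its bases lie in the second exon, chr16:35981725-35981795. No sequence of the long RNA of the large cytosolic ribosomal subunit was at hand, so a match there was not looked for. The start of the run is shown in capitals after the 8 bases that precede it in each transcript.
Lars2, chr9:123462040-123462069, plus strand: gtgaagcaGAATTCACCAAGCGTTGGATTG
Gm15564, across the junction of the first and second exons, minus strand: tctcacatGAATTCACCAAGCGTTGGATTG

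With 52 bases as the longest exact run found, no 100-base window, the length of a read here, could be shared exactly between the transcripts of Lars2 and Gm15564. Whether shorter or partly aligned reads could match both was not tested. The Lars2 transcript also matched AA474408 at 80.1% over 196 bases, a row with too few counts for the test. It was at 0 in 3 of 6 libraries at 14 weeks, 4 of 6 at 20 weeks and 1 of 6 at 26 weeks, with means of 0.246 ± 0.389, 0.33 ± 0.673 and 0.912 ± 1.11 CPM (SD, n = 6 each). Yam1 is a long non-coding RNA first described in muscle cells. It matched no entry of the annotation tables used here and is given without coordinates or sequence.

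Library totals ran from 5546624 to 17256379 counts, and from 8119 to 13164 rows had a count in a library. At 26 weeks the totals spread most widely, since the lowest (replicate 5) and the highest (replicate 3) of all 18 were both of that age. The 12 neutrophil marker rows, among them S100a8, S100a9 and Ly6g, summed to a median of 166045 CPM (counts scaled to a common library size, with TMM factors) at 14 weeks, 81484 at 20 weeks and 240450 at 26 weeks. The sum does not stand for each row. From 14 to 26 weeks 5 of the 12 were called higher and 4 lower (edgeR, adjusted p under 0.05). Their median log2 fold change was -0.03. From 14 to 20 weeks 1 was higher and 9 lower, and from 20 to 26 weeks 7 were higher and 1 lower. Plasma cell markers had a median sum of 1.55 CPM at 14 weeks, 518 at 20 weeks and 73.4 at 26 weeks. Only 2 of their 7 rows were tested, and Mzb1, Sdc1, Prdm1, Tnfrsf17 and Derl3 were at 0 in at least 9 libraries. At 14, 20 and 26 weeks the median sums were 358, 903 and 327 CPM for monocyte and macrophage markers. They were 6.61, 67 and 17.3 CPM for B cell, 10.7, 46.7 and 13 for eosinophil, and 134, 66.1 and 184 for T cell markers. In bulk libraries fewer cells of a type and less RNA per cell cannot be told apart, and for these 5 rows the same holds of more cells and more RNA per cell.

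Rn18s-rs5 was measured at 23.6 CPM at the lowest, 29.1 at the median and 56.2 at the highest among the 6 mice of 14 weeks. At 20 weeks the 3 values were 4.32, 14 and 41.1 CPM, and at 26 weeks they were 134, 732 and 3162 CPM. Every 26 week library lay above every younger one, while the 14 and 20 week libraries overlapped. From 14 to 26 weeks the row differed by 4.94 ± 0.72 (log2 fold change ± SE, 6 against 6 mice), from 20 to 26 weeks by 5.87 ± 0.76, and from 14 to 20 weeks by -0.93 ± 0.63. Of the 5 rows it had the largest difference in both comparisons with 26 weeks.

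mt-Rnr1 was the lowest of the 5 rows, with 4.33, 7.36 and 10.6 CPM as lowest, median and highest at 14 weeks. The values at 20 weeks were 0.0958, 4.68 and 12 CPM, the lowest of them a single read in replicate 3. At 26 weeks they were 11.6, 42.8 and 107 CPM. Here 1 library of 26 weeks, replicate 4, fell within the 20 week range, and all 6 lay above the 14 week range. The log2 fold changes were 2.79 ± 0.70 from 14 to 26 weeks, 3.26 ± 0.72 from 20 to 26 weeks and -0.47 ± 0.67 from 14 to 20 weeks.

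mt-Rnr2 was the steadiest row at 14 weeks, with 170, 187 and 211 CPM, a range of 1.24-fold. At 20 weeks the lowest, median and highest values were 79.1, 273 and 350 CPM, with replicates 1 and 2 below all 14 week mice and the other 4 above them. At 26 weeks they were 295, 810 and 1849 CPM, and replicate 4 again fell within the 20 week range. The log2 fold changes were the smallest of the 5 rows at 26 weeks, 2.30 ± 0.40 against 14 weeks and 2.01 ± 0.39 against 20 weeks, and the change from 14 to 20 weeks was 0.29 ± 0.38.

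Lars2 had 139, 183 and 258 CPM at 14 weeks and 65.3, 172 and 310 CPM at 20 weeks, given as lowest, median and highest. At 26 weeks the same values were 313, 1691 and 7259 CPM, and the lowest 26 week library lay only just above the highest of 20 weeks. In replicate 5 of that age Lars2 alone took 34648 of 5546624 counts. The log2 fold changes were 3.74 ± 0.59 from 14 to 26 weeks, 3.94 ± 0.60 from 20 to 26 weeks and -0.20 ± 0.53 from 14 to 20 weeks.

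Yam1 had 18.2, 23.7 and 39.9 CPM at 14 weeks, 2.27, 16.5 and 32.1 CPM at 20 weeks, and 70.1, 265 and 1026 CPM at 26 weeks. The 26 week libraries did not overlap the younger ones. The log2 fold changes were 3.85 ± 0.62 from 14 to 26 weeks, 4.55 ± 0.65 from 20 to 26 weeks and -0.71 ± 0.57 from 14 to 20 weeks.

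**Figure D1:**
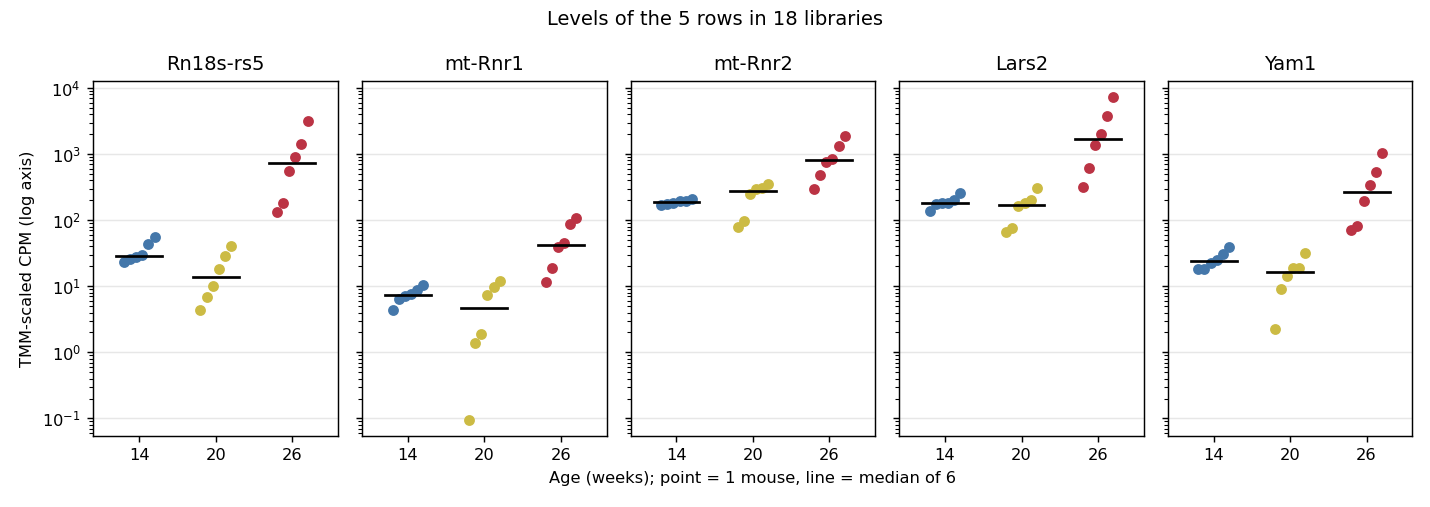
Level of each of the 5 rows in 18 libraries, as TMM-scaled CPM on a log axis, against age in weeks; each point is 1 mouse and each black line the median of 6. The 26 week mice lie highest and spread most, Lars2 from 313 to 7259 CPM, and the single mt-Rnr1 point near the bottom at 20 weeks is replicate 3 at 0.0958 CPM.

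**Figure D2:**
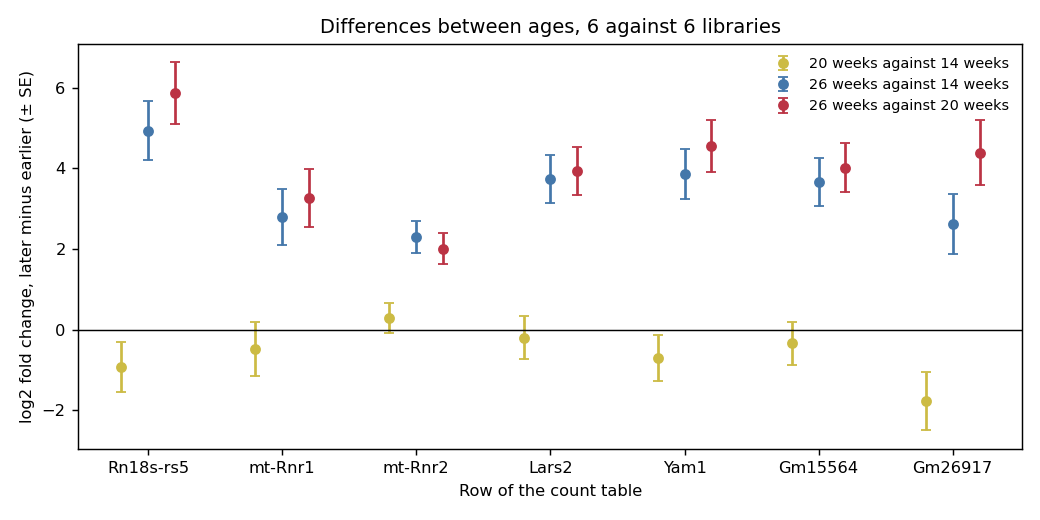
Log2 fold change, later minus earlier age, with its SE, for the 5 rows and for Gm15564 and Gm26917, from 1 edgeR fit of 18 libraries. Both comparisons with 26 weeks lie above 0 for all 7 rows, from 2.01 for mt-Rnr2 to 5.87 for Rn18s-rs5, and 20 against 14 weeks lies below 0 for all but mt-Rnr2.

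From 14 to 26 weeks all 5 rows passed the edgeR threshold (Benjamini-Hochberg adjusted p under 0.05 over 10104 rows) in the upward direction, where 5.45% of all tested rows did. In all 5 every 26 week library lay above every 14 week one, as in 2.9% of tested rows. From 20 to 26 weeks 5 of 5 passed upward, against 8.03% of tested rows, and 3 of 5 did not overlap, against 3.69%. From 14 to 20 weeks 0 of 5 passed in either direction, against 10.2% of tested rows, with 0 at an unadjusted p under 0.05 and 0 called by DESeq2 or limma-voom. No row had all its 20 week libraries above those of 14 weeks, against 2.97% of tested rows. The median log2 fold change of the 5 rows was 3.74, -0.47 and 3.94 from 14 to 26, 14 to 20 and 20 to 26 weeks, where that of all tested rows was 0.04, -0.02 and 0.05. Since these contrasts chose the rows, nothing is read from the counts, and comparisons that share an age share its libraries.

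The 26 week values lean on replicate 5, the library with the fewest counts and the highest level of all 5 rows. Without it the 14 to 26 week log2 fold change was 4.22 for Rn18s-rs5, 3.09 for Lars2 and 3.24 for Yam1, and the 20 to 26 week change was 5.14, 3.28 and 3.94. With the log2 library total as a covariate the 14 to 26 week values were 3.85, 2.86 and 2.93. Under that covariate Rn18s-rs5 was at -1.62 from 14 to 20 weeks, past the edgeR threshold, and Yam1 at -1.32. mt-Rnr1 and mt-Rnr2 moved by less than 1.5-fold under both changes.

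Together the 5 rows made up 0.0428% of a library's counts at the median of 14 weeks, 0.0536% at that of 20 weeks and 0.331% at that of 26 weeks. The 26 week range was 0.0852 to 1.15%, and its lowest library barely exceeded the highest of 20 weeks, 0.0837%. Levels per kilobase (kb) of annotated length compare rows only if reads cover that length. Where reads fell within a row, Lars2 included, cannot be told from these counts. By this measure mt-Rnr2 was the highest at 14 weeks with a median of 118 CPM per kb, ahead of Lars2 with 47, Rn18s-rs5 with 15.7 and mt-Rnr1 with 7.71. The ranges of these 4 rows over the 6 mice did not overlap, and Yam1 has no length here. At 20 weeks the order of the medians was the same, with 173, 44.2, 7.59 and 4.9 CPM per kb, and neighbouring rows overlapped. At 26 weeks the medians were 512 for mt-Rnr2, 434 for Lars2, 396 for Rn18s-rs5 and 44.8 for mt-Rnr1. The ranges of mt-Rnr2, Lars2 and Rn18s-rs5 overlapped at that age, and mt-Rnr1 lay below mt-Rnr2 in every mouse.

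The spread between mice also differed with age. At 26 weeks the highest library exceeded the lowest by 23.5-fold for Rn18s-rs5, 23.2-fold for Lars2, 14.7-fold for Yam1, 9.26-fold for mt-Rnr1 and 6.26-fold for mt-Rnr2. All 5 rows placed the 6 mice of that age in 1 order, from replicate 4 at the bottom through 3, 2, 6 and 1 to replicate 5 at the top. Within 26 weeks Pearson's r of log2 CPM lay between 0.975 and 0.997 over the 10 pairs of rows, and Spearman's rho was 1 for each pair (exact permutation p = 0.00278, adjusted over 30 relations 0.00833, two-sided). For rho that p is the smallest 6 mice allow, and for r, where the smallest is 0.00139, adjusted p ranged from 0.00694 to 0.0114. Leaving out the 2 mice farthest from the median of the row on the x axis left r at 0.97 or above in every pair.

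At 20 weeks the rows shared less of their order. Replicates 1 and 2 were lowest in Lars2, with 76.8 and 65.3 CPM, and also in Rn18s-rs5, mt-Rnr2 and Yam1, and replicate 6 was highest in these 4 rows. Of 10 pairs 4 passed by Pearson's r (exact permutation, adjusted over 30 relations): Lars2 with Yam1 (r = 0.916, adjusted p = 0.00833), with mt-Rnr2 (0.952, 0.0224) and with Rn18s-rs5 (0.926, 0.0224), and Rn18s-rs5 with Yam1 (0.862, 0.0238). Without the 2 mice farthest from the median of the row on the x axis, r was 0.981, 0.867, 0.768 and 0.649 for these pairs, in the same order. By Spearman's rho 3 pairs passed, each at rho = 0.943 with adjusted exact p = 0.0385: Lars2 with Rn18s-rs5, Lars2 with Yam1, and mt-Rnr2 with Yam1. None of the 4 pairs with mt-Rnr1 passed, with r from 0.256 to 0.68. In replicate 3, where 8119 rows had counts, mt-Rnr1 had 1 read and mt-Rnr2 had 3234. Without the 2 mice farthest from the median of mt-Rnr1, its r with mt-Rnr2 was 0.998 in place of 0.268. By the same trim it was 0.945 with Lars2, in place of 0.384, and 0.77 with Yam1, in place of 0.256. The trim left out replicate 3, and the few mice kept stood far apart in mt-Rnr1. Replicates 1 and 2 had 1.4 and 1.9 CPM, and replicates 4 and 6 had 7.46 and 9.74 CPM.

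At 14 weeks r ran from -0.0847 to 0.896, and 1 pair of 10 passed, Rn18s-rs5 with Yam1 (r = 0.896, adjusted exact permutation p = 0.0389). It rested on the outermost mice, since r was -0.0026 without the 2 farthest, and rho for that pair was 0.6 (adjusted exact p = 0.33). Over the 3 ages 15 of 30 relations passed by r, 13 of 30 by rho, and 29 of 30 had a positive r. The share of passing pairs among other tested rows was not computed, so these counts have no background beside them. Whether these rows go together more than other rows do was not tested. The rows were chosen with earlier results of these data known, so the counts and p values of the relations at every age are a description. Whether the relations differ between ages was not tested.

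**Figure D3:**
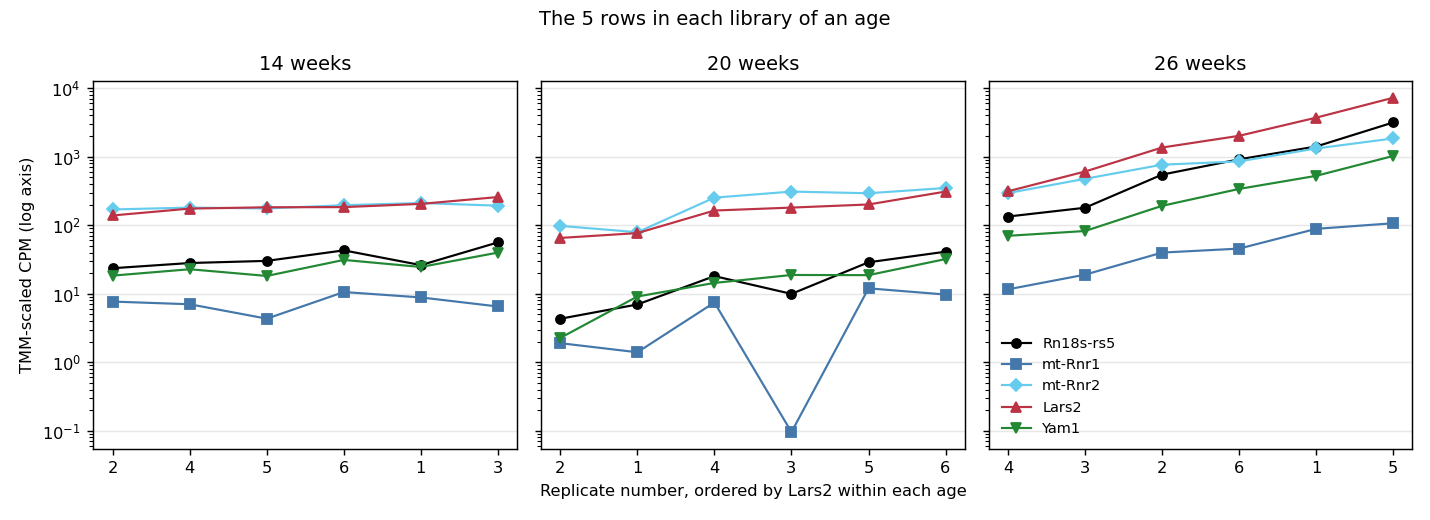
TMM-scaled CPM (log axis) of the 5 rows in each library, with the 6 replicates of an age ordered by Lars2 on the x axis; each line joins 1 row's values. All 5 lines climb together at 26 weeks, 4 of them do so with exceptions at 20 weeks, where mt-Rnr1 drops to 0.0958 CPM in replicate 3, and at 14 weeks the lines are nearly flat.

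Other measures of the libraries came in the same or nearly the same order at 26 weeks. From replicate 4 through 3, 2, 6 and 1 to 5, the 88 rows of cytosolic ribosomal protein genes summed to 1233, 1613, 2302, 2744, 3648 and 4191 CPM. The 12 neutrophil markers summed to 185965, 149726, 220887, 260013, 274780 and 292099 CPM in that order, which differs from the order of the 5 rows only in the first 2 libraries. T cell markers summed to 99.6, 98.5, 176, 192, 287 and 380 CPM, with Cd3e, Cd8a, Lck and Thy1 at 0 in at least 9 of the 18 libraries. Erythroid markers reached 251 CPM in replicate 6 and 38.1 in replicate 5, and plasma cell markers reached 479 CPM in replicate 4, the lowest library for the 5 rows. The library totals in the same order were 9339694, 17256379, 10266378, 10067873, 9930123 and 5546624 counts. What part these have in the order of the 5 rows was not tested.

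Gm15564, the row that shares a stretch of sequence with Lars2, followed Lars2 more closely than did any other tested row. Its lowest, median and highest levels were 41.3, 53.8 and 78.4 CPM at 14 weeks, 16, 47.9 and 82.5 CPM at 20 weeks, and 90.4, 475 and 2132 CPM at 26 weeks. Over the 18 libraries Gm15564 ranged 133-fold and Lars2 111-fold, while the ratio of their counts stayed between 0.245 and 0.326, a range of 1.33-fold. The mean ratio was 0.3 ± 0.0144 at 14 weeks, 0.272 ± 0.0199 at 20 weeks and 0.284 ± 0.00663 at 26 weeks (SD, n = 6 each). Gm15564 rose by 3.67 ± 0.60 from 14 to 26 weeks (edgeR, adjusted p = 0.00154) and by 4.02 ± 0.61 from 20 to 26 weeks (adjusted p = 0.000367). From 14 to 20 weeks it was at -0.34 ± 0.54 (adjusted p = 0.782). Without 26 weeks replicate 5 the 2 rises were 3.00 and 3.33. With the log2 library total as a covariate the rise from 14 to 26 weeks was 2.76, and each of these was still past the threshold. Gm15564 follows Lars2, whose differences were known when it was chosen, so these p values are no support apart from Lars2. The treatment of reads with more than 1 matching place is not stated for these counts, so it cannot be told whether the 2 rows hold reads of 1 origin.

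The other ratios moved more. mt-Rnr2 over Lars2 had a median of 1.03 at 14 weeks, 1.48 at 20 weeks and 0.492 at 26 weeks, and within 26 weeks it ran from 0.255 to 0.944. Rn18s-rs5 over Lars2 had medians of 0.167, 0.101 and 0.416, and its 26 week values, 0.296 to 0.454, lay above all 14 week values (0.128 to 0.234) and all 20 week values (0.0551 to 0.143). Lars2 over Yam1 had medians of 7.61, 10.2 and 7.07. mt-Rnr1 over mt-Rnr2, 2 RNAs of 1 precursor, had medians of 0.0403, 0.0236 and 0.0528.

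**Figure D4:**
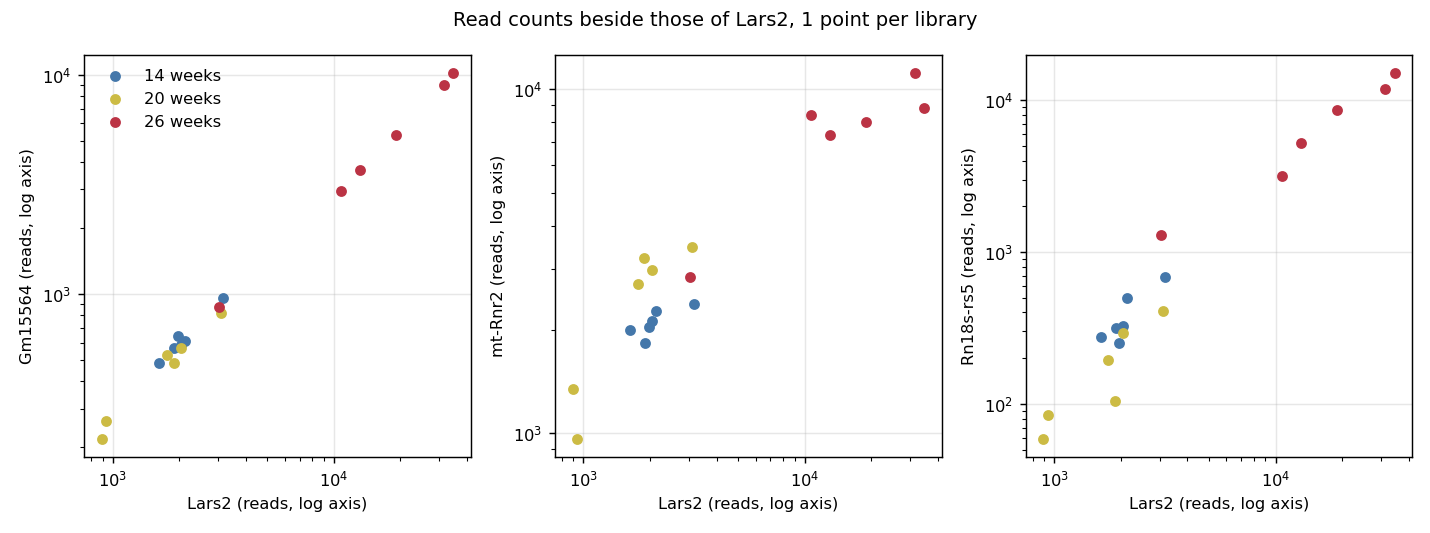
Read counts of Gm15564, mt-Rnr2 and Rn18s-rs5 against those of Lars2, both on log axes, 1 point per library, coloured by age. Gm15564 lies on 1 line with Lars2 at all ages (ratio 0.245 to 0.326), mt-Rnr2 covers a narrower range than Lars2 at 26 weeks, and Rn18s-rs5 lies higher relative to Lars2 there.

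By Pearson's r of log2 CPM over 18 libraries, given as a description over libraries that share ages, Lars2 was most like Gm15564 (0.999), Rps29 (0.979) and Gm17275 (0.979), members of the 5 rows left aside. With the mean of each age taken out the 3 were Gm15564 (0.998), Gm17275 (0.972) and Tpt1 (0.936). Gm17275 lies on the plus strand of chromosome 1 within the bounds of H3f3a, a histone gene on the minus strand. Rn18s-rs5 and Yam1 also had Gm15564 first on both measures, at 0.98 and 0.96 for Rn18s-rs5 and at 0.98 and 0.942 for Yam1. mt-Rnr2 was most like Gm15564 (0.966) and, with age means out, H3f3a (0.955). mt-Rnr1 had other neighbours, the small-subunit ribosomal protein genes Rpsa (0.961), Rps4x (0.956) and Rps19 (0.941), and with age means out Rps4x (0.926), Rpsa (0.914) and the proteasome gene Psmb5 (0.903). Members were also ranked among all other tested rows by r over 18 libraries. For mt-Rnr1 the ranks were 42 for Rn18s-rs5, 159 for Lars2, 177 for Yam1 and 357 for mt-Rnr2. For Lars2 they were 4 for Rn18s-rs5, 5 for Yam1, 7 for mt-Rnr2 and 283 for mt-Rnr1.

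The list of other ribosomal RNA rows held 17 rows. Of these only Gm15564 and Gm26917 had enough counts for the test, both annotated as non-coding RNA and not as ribosomal RNA, and the rest are rows named for the small RNAs of the large cytosolic subunit. Gm26917 is a non-coding RNA at chr17:39843013-39846341 on the plus strand, just upstream of the Rn18s-rs5 locus. Its lowest, median and highest levels were 12.7, 16.3 and 27.9 CPM at 14 weeks, 0, 4.11 and 15.5 at 20 weeks, and 29, 98.6 and 199 at 26 weeks. It rose by 4.39 ± 0.80 from 20 to 26 weeks (edgeR, adjusted p = 0.00119) and by 2.62 ± 0.74 from 14 to 26 weeks (adjusted p = 0.0269). The 14 to 26 week call was lost without 14 weeks replicate 1, 2, 4 or 5 or 26 weeks replicate 1, 5 or 6, with adjusted p from 0.0526 to 0.0744, and with the log2 library total as a covariate (2.10, adjusted p = 0.0908). From 14 to 20 weeks it was at -1.77 ± 0.73 (adjusted p = 0.143), and without 20 weeks replicate 5 at -2.43 (adjusted p = 0.0455). The ratio of Gm26917 to Rn18s-rs5 counts had a median of 0.585 at 14 weeks (0.397 to 0.663), of 0.334 at 20 weeks (0 to 0.894) and of 0.14 at 26 weeks (0.0629 to 0.43), and the 20 week range covered both others.

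The genes that work with these RNAs were described from lists. Of 12 tested mitochondrial aminoacyl-tRNA synthetases other than Lars2, 1 rose and 0 fell from 14 to 26 weeks (edgeR, adjusted p under 0.05), with a median log2 fold change of 0.45 against 0.04 for all tested rows. The 1 was Tars2, the threonine enzyme, a row near the limit of detection with 0.0427 ± 0.105 CPM at 14 weeks and 2.79 ± 3.07 at 26 weeks (SD, n = 6; adjusted p = 0.0327). That call was lost without 14 weeks replicate 1, 3, 4, 5 or 6, or without 26 weeks replicate 1, 5 or 6, with adjusted p up to 0.0824, with the log2 library total as a covariate (0.074) and with no filter on low counts (0.05). Tars2 had also passed from 14 to 20 weeks, at 2.4 ± 3 CPM (adjusted p = 0.0397), a call lost with limma-voom (0.158), without the filter, under the replicate block, or without 14 weeks replicate 1, 3, 4, 5 or 6, 20 weeks replicate 2 or 4, or 26 weeks replicate 4 or 6. Of 20 cytosolic synthetases 1 rose and 0 fell, with a median of 0.20. It was Farsb, a subunit of the phenylalanine enzyme, listed at 0 in all 14 week libraries and at 1.62 ± 1.86 CPM at 26 weeks (edgeR adjusted p = 0.0349), and its call was lost without any single 14 week library or without 26 weeks replicate 2 or 6, with adjusted p up to 0.0727, with the library total as a covariate (0.057) and with the replicate block (0.0986). Farsb had also passed from 14 to 20 weeks, at 1.13 ± 1.25 CPM (adjusted p = 0.0474), and that call was lost without any single 14 week library, without 20 weeks replicate 1, 5 or 6 or 26 weeks replicate 2, 3, 4 or 6, and in 4 other alternatives, with adjusted p up to 0.183. Dars fell from 118 ± 10.3 CPM at 14 weeks to 59.9 ± 21.4 at 20 weeks (-0.98 ± 0.25, edgeR adjusted p = 0.0166), a call kept in all 28 alternatives. Mars fell from 23.6 ± 13.9 CPM at 20 weeks to 8.95 ± 3 at 26 weeks (-1.40 ± 0.42, adjusted p = 0.0257), a call lost in 7 alternatives. From 20 to 26 weeks edgeR called 0 of the 12 mitochondrial synthetases, with 1 at an unadjusted p under 0.05, while DESeq2, which tested all 21 rows of the list, called 1 lower and limma-voom 0, and the median was 0.23.

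RNA polymerase I and the factors that mature cytosolic ribosomal RNA had 34 tested rows, of which 1 rose and 0 fell from 14 to 26 weeks, where 5.45% of all tested rows rose. The list's median was 0.46 from 14 to 26 weeks, 0.63 from 14 to 20 weeks and -0.19 from 20 to 26 weeks. The 1 was Polr1d, a subunit shared by RNA polymerases I and III, from 13.8 ± 2.72 to 31.6 ± 11.5 CPM (1.19 ± 0.29, edgeR adjusted p = 0.0119). In that comparison DESeq2, which tested all 43 rows of the list, called 4 higher and 0 lower, and limma-voom called 6 higher and 1 lower of the 34. Mitochondrial transcription and ribosomal RNA maturation had 20 tested rows and a median of 0.53 from 14 to 26 weeks. edgeR called 0 of them, with 1 at an unadjusted p under 0.05, DESeq2 called 0 of 27 and limma-voom 1. From 20 to 26 weeks 1 of these 20 rose, Hsd17b10, a subunit of mitochondrial RNase P that cuts tRNAs out of the mitochondrial precursor, from 24.4 ± 13.7 to 63.9 ± 21.8 CPM (1.39 ± 0.31, adjusted p = 0.00467).

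The table holds 7 protein-coding rows of the mitochondrial genome, the molecule from which mt-Rnr1 and mt-Rnr2 are transcribed. From 14 to 20 weeks 0 rose and 3 of 7 fell, where 10.2% of all tested rows were called in either direction. Their median was -1.24 against -0.02 for all tested rows. mt-Rnr1 was at -0.47 ± 0.67 and mt-Rnr2 at 0.29 ± 0.38, neither past the threshold. mt-Cytb, a subunit of respiratory complex III, went from 74.5 ± 17.8 to 31.4 ± 10.4 CPM (-1.25 ± 0.27, edgeR adjusted p = 0.0054). The count of 3 became 1 without 14 weeks replicate 4 or 6 or 20 weeks replicate 2 or 4. From 20 to 26 weeks all 7 rose, with a median of 2.58, mt-Cytb to 188 ± 68.4 CPM (2.58 ± 0.28, adjusted p = 4.94e-05) and mt-Co1, the catalytic subunit of complex IV, from 61.9 ± 28.1 to 329 ± 114 CPM (2.41 ± 0.29, adjusted p = 9.91e-05). From 14 to 26 weeks 5 of 7 rose, 3 without 26 weeks replicate 5, with a median of 1.72. The difference between the ribosomal RNA rows and the protein-coding rows was not tested.

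Of 80 tested cytosolic ribosomal protein genes 50 rose and 0 fell from 14 to 26 weeks, with a median of 1.92, and 48 rose and 0 fell from 20 to 26 weeks, with a median of 1.73. Without 26 weeks replicate 5 the counts were 35 and 33. Rps27 went from 5.8 ± 1.37 CPM at 14 weeks to 36.2 ± 22.8 at 26 weeks (2.64 ± 0.42, edgeR adjusted p = 0.00154). Mitochondrial ribosomal proteins had 71 tested rows, of which 10 rose and 1 fell from 14 to 26 weeks, with a median of 1.14. Mrps14, of the small mitochondrial subunit, went from 7.06 ± 1.86 to 27.7 ± 14.1 CPM (1.97 ± 0.46, adjusted p = 0.00996). The count of 10 was 5 without 26 weeks replicate 5, 6 without 26 weeks replicate 2 or 14 weeks replicate 3 or 4, and 19 without 20 weeks replicate 3. Many ribosomal protein genes have near-identical processed pseudogenes, and the authors' counting could split their reads, so single rows of these lists are uncertain.

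Other RNAs without a protein product were looked at beside the 5 rows. Mir6236, a short RNA annotated as a microRNA at chr9:110281287-110281409, went from 21.9 ± 4.91 CPM at 14 weeks to 87.6 ± 32.2 at 26 weeks (2.00 ± 0.34, edgeR adjusted p = 0.00182) and was at -0.00 ± 0.33 from 14 to 20 weeks (adjusted p = 0.994). Malat1, a nuclear long non-coding RNA, had risen by 1.70 ± 0.28 at 20 weeks (adjusted p = 0.000929) and was at -0.24 ± 0.27 from 20 to 26 weeks (adjusted p = 0.62). Neat1, which builds nuclear paraspeckles, rose by 2.13 ± 0.35 from 14 to 20 weeks (adjusted p = 0.000929) and fell by 1.39 ± 0.34 from 20 to 26 weeks (adjusted p = 0.00862). Of 10 tested replication-dependent histone genes, whose messages end without a poly(A) tail, edgeR called 0 from 14 to 26 weeks, with 3 at an unadjusted p under 0.05, 4 of 43 called by DESeq2 and 3 by limma-voom, and 0 by any of these counts from 20 to 26 weeks. From 14 to 20 weeks 1 rose, Hist1h2bc, from 34.5 ± 21.7 to 91.3 ± 21.7 CPM (1.40 ± 0.38, edgeR adjusted p = 0.023), which did not pass without 14 weeks replicate 4 or 6 or 20 weeks replicate 4 (adjusted p up to 0.0587). The list's median was 1.28 from 14 to 20 weeks, 0.96 from 14 to 26 weeks and -0.13 from 20 to 26 weeks.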

How the data were processed

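The authors deposited raw read counts per gene symbol, 17941 rows in 18 columns. The submitters' processing notes name the build GRCm38.p4 and the tools DESeq, DESeq2 1.12.3, HTSeq 0.6.1, STAR 2.4.2a and Trimmomatic 0.32. Not given in the sources used here are the role of each tool, the annotation, the strand setting and the handling of reads with several matches. Per the labels' protocols, libraries were made with Nextera XT and read from 1 end.

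Groups came from sample titles, and no batch is labelled. Counts were tested with edgeR 4.0.16 (TMM, filterByExpr, robust quasi-likelihood fit of 18 libraries, Benjamini-Hochberg over 10104 rows, threshold 0.05), checked on simulated data. Log2 CPM used a prior count of 2. Relations used exact permutation (720 pairings, scipy 1.17.1). Titles call replicates biological. No library was a copy of another (45 same-age pairs, mean chi-square per gene 27.8 to 199). Alternatives were other scaling factors, DESeq2 1.42.0, limma 3.58.1, filters, only 2 ages, a replicate block, the library total as covariate and each library left out. Sequences were matched with BLAST 2.17.0. The rows and lists were chosen with earlier results of these data known. Genes named are the 5 rows, other ribosomal RNA rows that were tested, up to 2 called genes per direction of a list by smallest p, and the 3 rows most like each of the 5.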

Additional observations from a re-analysis of the deposited data

How the results depend on the processing

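In 26 against 14 weeks 1111 rows passed, and DESeq2 gave 1808, limma-voom with quality weights 2679 and a fit of only the 2 ages 1710. In 20 against 14 weeks 1030 passed and DESeq2 gave 1727, and in 26 against 20 weeks 1617 passed and DESeq2 gave 2553. The cause was not tested. Leaving out 1 library gave 652 to 1544, 702 to 1263 and 1141 to 1911 rows, the lowest in 26 against 14 weeks without 26 weeks replicate 1, followed by 726 without replicate 6 and 733 without replicate 2 of that age. In 26 against 14 weeks 49.6% of calls were upward, and 62% with upper quartile factors, which moved the median of all tested rows from 0.04 to 0.14, 59.8% with DESeq2 and 59.6% with at least 10 CPM in 6 libraries. In 20 against 14 weeks the upward share was 48.3%, and 57.3% with upper quartile factors. Across 28 alternatives each of the 5 rows stayed upward and past the threshold in both comparisons with 26 weeks. The rows were chosen with these contrasts known and the alternatives refit the same libraries, so this bears on processing alone. limma-voom with quality weights gave 4.21 for Rn18s-rs5 and 3.06 for Lars2 from 14 to 26 weeks. From 14 to 20 weeks mt-Rnr2 ran from -0.04 to 0.47 and the other 4 rows stayed below 0. Of the relations 15 passed, and 15 to 16 did under 3 alternatives. mt-Rnr1 with Lars2 at 14 weeks, not past the threshold, went from r = -0.08 to 0.01 with RLE factors. With the stricter filter 31 cytosolic ribosomal protein genes rose from 20 to 26 weeks. The 10 mitochondrial ribosomal protein genes that rose from 14 to 26 weeks were 23 with DESeq2, 33 with limma-voom, 24 with only 2 ages, 6 with no filter and 5 with the library total as a covariate.

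With the replicate number as a block 946, 962 and 1573 rows passed in 26 against 14, 20 against 14 and 26 against 20 weeks. The deviations of same-numbered libraries correlated at -0.053 to 0.136, -0.029 to 0.048 and -0.015 to 0.013 in 26 against 14, 20 against 14 and 26 against 20 weeks, and 6, 1 and 1 of 12 libraries were closest to their own number. Not every pair reached 0.1, so the numbers were not taken to pair the mice; the 6 of 12 in 26 against 14 weeks is a hint from the data, not the design. Under the block the calls of Farsb (0.0986) and Gm26917 (0.0765) from 14 to 26 weeks and of Tars2 (0.104) and Farsb (0.183) from 14 to 20 weeks were lost, and Gm26917 passed from 14 to 20 weeks (0.0379), all as adjusted p.

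Low counts limit mt-Rnr1 in 1 library (a single read in 20 weeks replicate 3), Gm26917 at 20 weeks, and Tars2 and Farsb at 14 weeks. SE and SD hold differences between mice as well as counting error.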
